A study of Mus musculus with 2 samples.

Results

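The interferon-stimulated effector genes are a chosen set of 40 genes known as products of the interferon response, and 38 of them have a row among the 31205 gene symbols measured. Mx1 and Mx2 have no row and are not analysed here. The cells came from crypts of the duodenum, the glands at whose base the intestinal stem cells sit, of wild-type mice in groups labelled NT and ES, letters that the labels leave unexplained. Each group was a pool of 5 animals sequenced as 1 library, in a series on chronic stress and the ageing of these stem cells. Strain, sex and age are not given in the sources used here. Barcodes carry a suffix of 1 or 2 that nothing ties to NT or ES, so the groups are called library 1 and library 2 and no direction between NT and ES is drawn.

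Interferons bind receptors at the cell surface whose kinases activate transcription factors such as Stat2 and Irf9, and these enter the nucleus and switch on a common programme of effector genes. Its products sense viral RNA, degrade or sequester it, tag proteins with the ubiquitin-like Isg15 or block the entry and release of virus particles. In the gut, epithelial cells respond to type I, type II and type III interferons, and lymphocytes between the epithelial cells are a source of interferon-gamma.

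Many of these genes share a short promoter element, the interferon-stimulated response element (ISRE), searched here as GAAA, any 2 bases and GAAA again, on both strands, overlapping matches counted. The element is shown for 4 members whose promoters hold it at least 2 times, and for Phf11b and Phf11d, related genes with different patterns among the cell classes. Each line gives, 5′ to 3′ on the gene's strand, up to 150 bases before the start site, cut short where the annotation places a transcript; capitals mark the matched letters, which read TTTC, 2 bases and TTTC where the match is on the other strand. The sequences are RefSeq's, on build GRCm38.p6. Isg15 encodes the ubiquitin-like tag (chr4:156200819-156200968, minus strand), Ifit1 a protein that binds viral RNA ends (chr19:34640739-34640870, plus strand), Oas1a an oligoadenylate synthetase (chr5:120907526-120907675, minus strand) and Bst2 tetherin, which holds budding virus at the membrane (chr8:71537473-71537622, minus strand). Phf11b (chr14:59341352-59341480, minus strand) and Phf11d (chr14:59365491-59365640, minus strand) are neighbours with a PHD finger domain.
Isg15: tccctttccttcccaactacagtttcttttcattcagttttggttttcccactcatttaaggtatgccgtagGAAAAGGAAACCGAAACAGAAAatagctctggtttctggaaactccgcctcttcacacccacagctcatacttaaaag
Ifit1: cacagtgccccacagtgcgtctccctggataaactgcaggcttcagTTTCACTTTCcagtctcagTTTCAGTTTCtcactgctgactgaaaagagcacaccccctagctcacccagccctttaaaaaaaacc
Oas1a: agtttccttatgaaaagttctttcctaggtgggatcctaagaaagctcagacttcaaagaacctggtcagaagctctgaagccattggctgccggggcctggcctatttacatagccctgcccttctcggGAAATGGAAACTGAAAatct
Bst2: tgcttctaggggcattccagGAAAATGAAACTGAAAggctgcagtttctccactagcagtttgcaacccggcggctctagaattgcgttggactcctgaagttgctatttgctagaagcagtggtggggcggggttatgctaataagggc
Phf11b: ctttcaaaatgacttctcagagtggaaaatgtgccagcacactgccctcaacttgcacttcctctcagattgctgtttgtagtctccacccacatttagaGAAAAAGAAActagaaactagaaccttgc
Phf11d: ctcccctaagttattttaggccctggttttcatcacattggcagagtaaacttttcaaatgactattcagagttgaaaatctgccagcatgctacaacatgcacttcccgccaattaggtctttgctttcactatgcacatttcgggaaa

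The matched letters were found in 19 of the 29 members with an entry in the promoter table (65.5%), against 3.99% of its 27025 genes, in promoters each running from 250 bases before the start to 50 after it. Isg15 held 3 overlapping matches, and Ifit1, Oas1a and Bst2 held 2 each. Phf11b held 1 and Phf11d none. The letters TTCNNNGAA of the gamma-activated site, searched in the same way, were found in 8 of the 29 (27.6%), against 9.55% of all genes; of their 9 matches 2 overlapped an ISRE match. A match describes these letters only. The other 9 members have no entry.

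Of 12756 barcodes, 7784 had at least 500 genes and at most 25% mitochondrial UMIs (unique molecular identifiers, each counted as 1 captured RNA molecule), 4057 in library 1 and 3727 in library 2, with medians of 10854 and 11800 UMIs. Cells were put into classes by their UMIs of lineage markers, so a class is a range of marker level and not a cell type drawn by an independent label. The stem class (markers such as Lgr5 and Ascl2) held 518 and 419 cells in the libraries, the cycling class 755 and 502, the enterocyte class (absorptive cells) 449 and 545, the goblet class (mucus-secreting) 321 and 472, and the Paneth class (defensin-secreting) 174 and 191. The cycling class holds only cells that passed no lineage gate, and 185 and 143 cells of the stem class were also past the cycling gate. There were 66 and 91 enteroendocrine cells, which secrete hormones, 264 and 216 lymphocytes, and 1336 and 1117 other epithelial cells that passed no gate but had Epcam, an epithelial adhesion protein. At less than 1.2 times their gate's threshold lay 76 and 68 cells of the stem class and 91 and 96 of the enterocyte class. Each of 19 markers kept out of the gates, for example Olfm4 for stem cells and Fabp1 for enterocytes, was highest in its own class in both libraries. The class sizes are set by the gates and are not compared. The libraries shared 40 barcode sequences, and without them no summed ratio of the 38 members, or of the 35 described below, left its counting interval in any of the 8 classes.

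Summed over the 38 members, the level was higher in library 2 in each of the 8 classes. Levels are counts per 1000000 UMIs of the class (CPM), and a ratio is that of library 2 to library 1. Its exact 95% interval covers counting error only, not differences between animals or between cells. With 1 library per group there is no test. The stem class held 1326 CPM of the members in library 1 and 2442 CPM in library 2, which is a ratio of 1.84 (1.79 to 1.89). The enterocyte class held 1594 and 3800 CPM, a ratio of 2.38 (2.33 to 2.44). Its interval lay wholly above that of the stem class. Cycling cells held 1006 and 1982 CPM (1.97, 1.92 to 2.02), and the other epithelial cells 1051 and 2136 (2.03, 2 to 2.07). Goblet cells stood at 1541 and 3253 CPM (2.11, 2.04 to 2.18). Both the goblet and the enterocyte class were thus above the stem class in level in each library. Paneth cells had the lowest sums, 414 and 928 CPM (2.24, 2.08 to 2.42), in a class where the 6 gate markers alone took 406949 and 389698 CPM. Enteroendocrine cells stood at 1200 and 1996 CPM, with the smallest ratio, 1.66 (1.53 to 1.82). Lymphocytes, the class with the fewest UMIs per cell (medians 2430 and 3252), stood at 1642 and 3883 CPM (2.36, 2.21 to 2.53).

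Ifitm3, Ifi27l2b and Lgals3bp, the members with most UMIs, gave 66.5% and 60.1% of the sum in the stem class, 45.7% and 35.9% in enterocytes, and 10.6% and 11.0% in lymphocytes. Without them the remaining 35 members stood at 443 and 975 CPM in the stem class, a ratio of 2.20 (2.1 to 2.30). The ratio was 2.82 (2.73 to 2.91) in enterocytes, from 865 and 2435 CPM, and 2.97 (2.63 to 3.35) in Paneth cells, from 150 and 445 CPM. Lymphocytes then had the highest level in both libraries, 1467 and 3454 CPM, and an almost unchanged ratio of 2.35 (2.19 to 2.53). In Paneth cells the gate markers of other classes, an indicator of RNA from other cells, also differed between the libraries. Enterocyte gate markers were at 479 and 830 CPM there and goblet gate markers at 2348 and 4123. Stem gate markers were at 209 and 144 CPM and cycling gate markers at 408 and 307. The part of such RNA in the Paneth ratio was not tested.

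**Figure D1:**
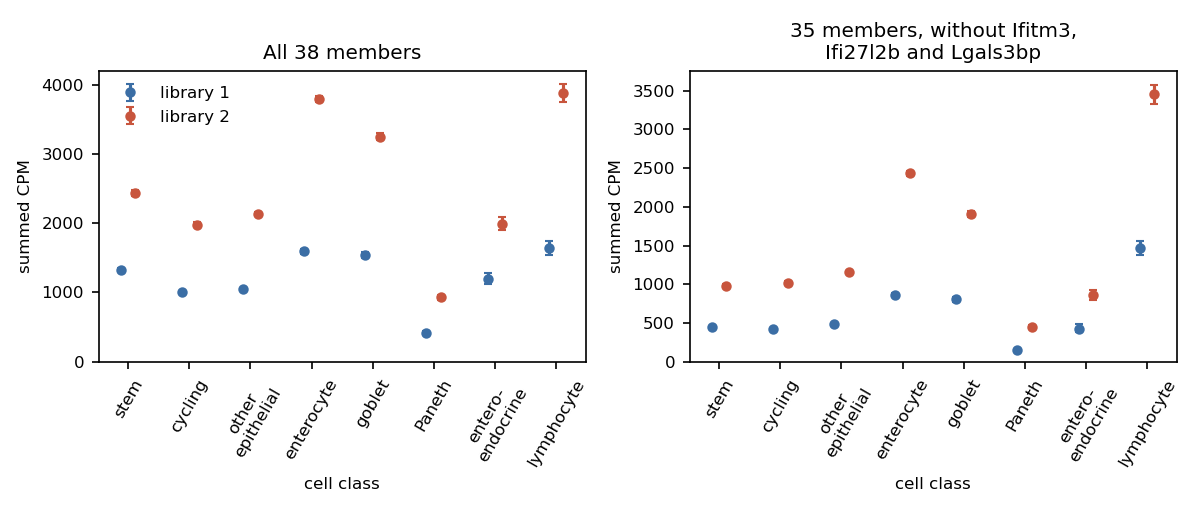
Summed level of the members in CPM (y axes, linear) in each of 8 cell classes (x axes) and both libraries, for all 38 members on the left and for the 35 without Ifitm3, Ifi27l2b and Lgals3bp on the right; points are class sums of 1 library each and bars are exact 95% counting intervals. Library 2 lies above library 1 in every class, from 414 against 928 CPM in Paneth cells to 1642 against 3883 in lymphocytes on the left.

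A member counts as higher here when it has at least 20 UMIs over both libraries, a ratio of at least 1.5 and an interval above 1, which is a rule of size. By this rule 28 of the 38 members were higher in library 2 in the stem class, where 3 had too few UMIs and 7 were measured but not apart by this rule in either direction. The minimum is on the sum of both libraries, so members with few UMIs in library 1 could pass it through library 2 alone. Ifit1, Ifi27l2a, Usp18 and Oas3 did so in the stem class and are in the count. Of all genes measured in that class, 3.03% were higher by the same rule. The members were chosen with earlier results of these data known, which the shares of all genes given here do not allow for. The count was 32 in cycling cells (all genes 3%), 33 in other epithelial cells (all genes 3.65%), 33 in enterocytes (all genes 4.59%) and 33 in goblet cells (all genes 3.08%). Fewer members reached 20 UMIs elsewhere. In Paneth cells 18 were higher (all genes 5.8%) and 16 had too few UMIs, in enteroendocrine cells 9 (all genes 6.32%) and 20, and in lymphocytes 26 (all genes 7.04%) and 7. No member was lower in any of the 8 classes, against 1.31% of all genes in the stem class, 2.36% in cycling, 2.77% in other epithelial, 1.82% in enterocyte, 1.95% in goblet, 3.83% in Paneth and 5.5% in enteroendocrine cells and 7.08% in lymphocytes.

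The medians given here include the members that passed the minimum through library 2 alone. The median log2 ratio of the members measured was 1.53 in the stem class, 2.13 in enterocytes, 1.44 in goblet cells and 1.31 in lymphocytes. Over all genes measured it lay between -0.02 and 0.05 in every class. Rtp4, Oasl2 and Ifi27l2b were higher in all 8 classes, and 24 members were higher in at least 6. The shares of all genes higher in that many classes were not computed. The classes come from the same 2 libraries and are not independent of each other. In all, 15 members had enough UMIs to be measured in all 8.

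**Figure D2:**
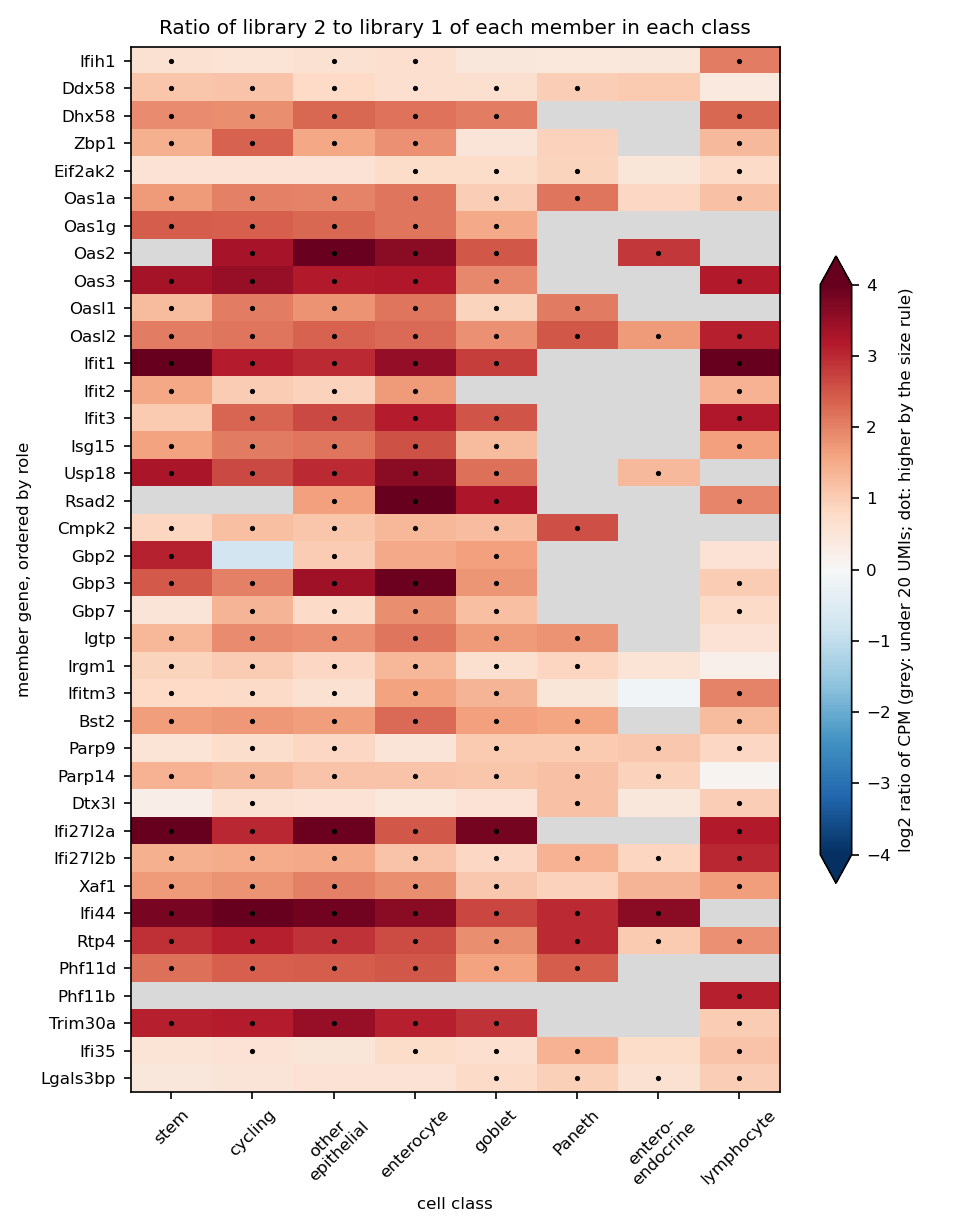
Colour map of the log2 ratio of CPM, library 2 to library 1, of each of 38 members (rows, ordered by role) in each of 8 cell classes (columns); red is higher in library 2, grey marks members with under 20 UMIs, a dot marks a member higher by the size rule, and colours end at 4, past which values share the darkest shade; Ifi44 in Paneth and Oas2 in enteroendocrine cells are drawn at their lower bound. The Oas3, Ifit1, Ifi44, Rtp4 and Trim30a rows are dark in most classes where they are measured, and the Eif2ak2, Dtx3l and Lgals3bp rows are pale.

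Summed over the 5 sensors of foreign nucleic acid, the ratio lay between 1.57 in goblet cells and 1.90 in lymphocytes. Its interval was below that of the summed Oas family in each of the 8 classes, although single sensors reached larger ratios. Ifih1 (Mda5, a sensor of long double-stranded RNA) stood at 37.1 CPM in library 1 and 57.0 in library 2 in the stem class, from 257 and 315 UMIs, a ratio of 1.54 (1.30 to 1.82). Ddx58 (Rig-I, a sensor of RNA ends) stood at 15.9 and 34.6 CPM (2.18, 1.71 to 2.78). Eif2ak2, the kinase PKR that halts translation on double-stranded RNA, was not apart, with 66.8 and 99.1 CPM and a ratio of 1.48 (1.31 to 1.68). Dhx58, a regulator of these sensors, stood at 2.75 and 10.1 CPM, a ratio of 3.69 (2.16 to 6.58), the largest among the sensors in the stem class. In lymphocytes Ddx58 was already high in library 1, at 160 CPM against 212 in library 2, and was not apart (1.32, 1.04 to 1.69), while Ifih1 stood at 24.5 and 100 CPM (4.09, 2.41 to 7.33).

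The oligoadenylate synthetases make a messenger that activates the RNA-cutting enzyme RNase L, and Oasl1 and Oasl2 are relatives of them. Summed, this family of 6 stood at 46.1 CPM in library 1 and 177 in library 2 in the stem class (3.84, 3.38 to 4.37), and at 109 and 535 CPM in enterocytes (4.90, 4.50 to 5.33). Oasl2 had most UMIs, 208 and 680 in the stem class, or 30.1 and 123 CPM (4.10, 3.50 to 4.81). It was at 86.8 and 307 CPM in goblet cells and at 67.9 and 326 CPM in enterocytes. In lymphocytes it was at 2.89 and 25.1 CPM, from 2 and 22 UMIs, the lowest level of Oasl2 in either library. The Paneth gate markers, an indicator of RNA from other cells, were at 2623 and 3974 CPM in lymphocytes. The goblet gate markers were at 505 and 1625 CPM there and the enterocyte gate markers at 250 and 466 CPM. The part of free RNA in these low levels and their ratio was not tested.

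Oas3 stood at 0.578 and 5.79 CPM in the stem class, from 4 and 32 UMIs (10.0, 3.56 to 39.0), and at 4.87 and 45 CPM in enterocytes (9.25, 6.29 to 14.1). Oas2 was mainly seen in goblet cells, at 9.44 and 52.5 CPM (5.56, 3.80 to 8.41), and had 6 and 11 UMIs in the whole stem class. Among enteroendocrine cells Oas2 had no UMI in library 1 and 27 in library 2, at least 7.14-fold higher when 3 counts are allowed for library 1. Oas1a stood at 8.81 and 29.0 CPM in the stem class (3.29, 2.43 to 4.49) and Oas1g at 1.16 and 6.16. These paralogues share sequence: 56.1% of the 50-base words in the last 500 bases of Oas1a's transcript also occur in that of Oas1g, so the split between them is uncertain. The 4 Oas genes lie together at chr5:120730333-120907521 on GRCm38 (GENCODE M21).

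The Ifit proteins bind RNA that lacks the marks of host messengers. Ifit1 had 1 UMI in the stem class of library 1 and 27 in that of library 2, a ratio of 33.8 whose interval runs from 5.58 to 1385. Enterocytes gave a firmer value, 52 and 828 UMIs or 9.04 and 103 CPM (11.4, 8.61 to 15.4). Lymphocytes stood at 7.21 and 117 CPM (16.3, 6.75 to 51.2). Ifit3 went from 5.21 CPM in library 1 to 46.1 in library 2 in enterocytes (8.85, 6.09 to 13.3), but was not apart in the stem class, with 11 and 18 UMIs (2.05, 0.917 to 4.81). Of its transcript end, 14.9% is shared with Ifit3b. Ifit2 differed from its neighbours in where it was seen: at 3.76 and 10.9 CPM in the stem class it stood beside 1.91 and 6.22 in enterocytes, and it was highest in lymphocytes, at 17.3 and 45.6. Its level in enterocytes was 0.509 times that in the stem class in library 1 (0.227 to 1.07), which is not apart, and 0.572 times in library 2 (0.385 to 0.847).

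Isg15 is attached to other proteins as a tag, and Usp18 is the protease that removes it and dampens signalling from the type I receptor. Isg15 stood at 2.89 CPM in library 1 and 8.87 in library 2 in the stem class (3.07, 1.79 to 5.45), and at 11.3 and 65.8 CPM in enterocytes (5.82, 4.49 to 7.66). These intervals overlap. Usp18 had 3 and 23 UMIs in the stem class (9.61, 2.90 to 50.0) and 13 and 221 in enterocytes, or 2.26 and 27.5 CPM (12.2, 6.97 to 23.2). Its highest level in both libraries was in enteroendocrine cells, 19.0 and 46.4 CPM, although these rest on 12 and 37 UMIs. Summed, the pair had a ratio of 6.88 (5.44 to 8.80) in enterocytes and 2.88 (2.16 to 3.89) in goblet cells.

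Rsad2 (viperin) makes a chain-terminating nucleotide, and Cmpk2 is a nucleotide kinase encoded beside it on chromosome 12. Rsad2 had 3 and 87 UMIs in enterocytes, or 0.521 and 10.8 CPM (20.8, 6.87 to 103), and 1 and 18 in the stem class, under the minimum. Cmpk2 was measured at 12.9 and 23.2 CPM in the stem class (1.80, 1.36 to 2.39) and at 21.7 and 54.7 CPM in enterocytes (2.52, 2.06 to 3.10). The neighbours thus had ratios whose intervals do not overlap in enterocytes. In lymphocytes Rsad2 stood at 10.1 and 38.8 CPM, from 7 and 34 UMIs. Of these, 5 and 26 UMIs lay in the 14 and 11 cells with the highest member share, described below.

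The GTPases of the GBP and IRG families attack membranes around pathogens and are also induced by interferon-gamma. Irgm1 had most UMIs, at 40.3 CPM in library 1 and 74.4 in library 2 in the stem class (1.85, 1.58 to 2.16) and 62.0 and 71.8 in lymphocytes, where it was not apart (1.16, 0.773 to 1.75). Igtp stood at 9.54 and 24.1 CPM in the stem class (2.53, 1.87 to 3.45) and at 23.3 and 102 CPM in enterocytes (4.37, 3.63 to 5.28). Gbp7 was not apart in the stem class (7.95 and 11.4 CPM; 1.44, 0.984 to 2.1), whereas in enterocytes it stood at 4.17 and 15.2 CPM (3.64, 2.33 to 5.89). Gbp2 and Gbp3 were low in epithelium and highest in lymphocytes, Gbp2 at 75 and 112 CPM there. Gbp2 in cycling cells, with 30 and 12 UMIs (0.585, 0.273 to 1.18) and Ifitm3 in enteroendocrine cells were the measured members with a ratio under 1, and both intervals include 1. Summed, these GTPases had their largest ratio in enterocytes, 3.36 (3 to 3.76), against 1.56 (1.34 to 1.81) in lymphocytes and 1.34 (0.849 to 2.14) in enteroendocrine cells.

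Ifitm3 blocks the fusion of entering virus with the endosome, and Bst2 tethers virus on its way out. Ifitm3 was the only member highest in the stem class, in both libraries, at 512 CPM from 3545 UMIs in library 1 and 888 CPM from 4905 UMIs in library 2 (1.73, 1.66 to 1.81). It was lower in the cycling class, which leaves out cells past the stem gate, at 184 and 317 CPM. It was lower again in enterocytes, at 22.9 and 69.9 CPM, where its ratio was larger, 3.05 (2.52 to 3.71). In enteroendocrine cells it was 109 and 100 CPM (0.920, 0.658 to 1.29). Of its transcript end, 14.0% is shared with Ifitm1, Ifitm2 and pseudogenes. Bst2 stood at 9.10 and 28.8 CPM in the stem class (3.16, 2.35 to 4.31) and was higher in library 2 in all 7 classes in which it was measured.

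Parp9 and Dtx3l form a ubiquitin ligase complex with Parp14 as a related ADP-ribosyltransferase, and the genes lie close together on chromosome 16. Dtx3l was among the least different members, at 80.8 CPM in library 1 and 97.4 in library 2 in the stem class (1.21, 1.07 to 1.36) and 129 and 174 CPM in enterocytes (1.35, 1.23 to 1.48). Parp9 was not apart in either class, at 43.3 and 63.4 CPM in the stem class (1.46, 1.25 to 1.71). Parp14 stood at 18.2 and 47.6 CPM there (2.62, 2.11 to 3.26), but at 150 and 161 CPM in lymphocytes (1.07, 0.825 to 1.39). Summed, the 3 genes had ratios between 1.46 in the stem class and 2.18 in Paneth cells.

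Ifi27l2a and Ifi27l2b are adjacent genes for small membrane proteins on chromosome 12, and they divided between the classes. Ifi27l2b had its lowest value in lymphocytes in both libraries, although in library 2 the interval overlapped that of enteroendocrine cells. Its level was 439 CPM in library 1 and 785 in library 2 in goblet cells (1.79, 1.68 to 1.90), 337 and 746 in enterocytes (2.21, 2.1 to 2.33) and 57.2 and 155 in the stem class (2.71, 2.40 to 3.06). In lymphocytes it stood at 10.1 and 82.1 CPM, from 7 and 72 UMIs (8.13, 3.75 to 20.9), in a class where the goblet gate markers were also higher in library 2, as given above. Ifi27l2a was mainly a lymphocyte gene, at 54.8 and 496 CPM there from 38 and 435 UMIs (9.04, 6.48 to 13.0). In the stem class it had 2 and 86 UMIs, or 0.289 and 15.6 CPM (53.9, 14.5 to 452), and in goblet cells 2.52 and 36.1 CPM (14.4, 7.13 to 33.8). The transcript ends of these neighbours share 0.48% of Ifi27l2a's 50-base words. Xaf1, a protein that favours apoptosis, stood at 6.36 and 20.8 CPM in the stem class (3.28, 2.30 to 4.75).

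Among the remaining members, Ifi44, a cytosolic protein with antiviral activity, was higher in all 7 classes in which it was measured. It had 19 and 209 UMIs in the stem class, or 2.75 and 37.8 CPM (13.8, 8.61 to 23.4), and 20 and 259 UMIs in cycling cells (18.9, 12 to 31.5). Enterocytes stood at 9.56 and 117 CPM (12.2, 9.29 to 16.3). Goblet cells had a smaller ratio, 6.38 (4.50 to 9.31), whose interval barely overlaps that of enterocytes. Paneth cells had no UMI of Ifi44 in library 1 and 25 in library 2, at least 7.90-fold higher with 3 counts allowed for library 1. Lymphocytes had 0 and 5 UMIs.

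Rtp4, a chaperone of receptors, stood at 5.64 CPM in library 1 and 42.4 in library 2 in the stem class (7.52, 5.34 to 10.8), with ratios down to 2.05 (1.02 to 4.38) in enteroendocrine cells. Trim30a, a ubiquitin ligase that restrains inflammatory signalling, was at 1.30 and 11.2 CPM in the stem class (8.63, 4.27 to 19.8), and in lymphocytes at the far higher level of 134 and 269 CPM (2, 1.57 to 2.58). Ifi35 was not apart in the stem class, at 19.1 and 27.9 CPM. Lgals3bp, a secreted binding partner of galectin-3, was also not apart there, at 313 and 424 CPM (1.36, 1.28 to 1.44), and was highest in enteroendocrine cells, at 601 and 919 CPM (1.53, 1.35 to 1.74).

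Phf11b and Phf11d, whose promoters are printed above, showed opposite classes. Phf11b had 8 and 87 UMIs in lymphocytes, or 11.5 CPM in library 1 and 99.2 in library 2 (8.59, 4.17 to 20.5), against 1 and 0 UMIs in the stem class. Phf11d had 27 and 99 UMIs in the stem class, or 3.90 and 17.9 CPM (4.60, 2.98 to 7.32), and 1 and 5 in lymphocytes. Its level was 6.78 and 38.3 CPM in enterocytes (5.65, 4.04 to 8.10). Of the 50-base words in their transcript ends, 42.6% of Phf11b's are shared with other Phf11 genes. Of Phf11d's words, 22.5% are shared with other Phf11 genes or with Rbm8a2. Counts of both genes carry that uncertainty.

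**Figure D3:**
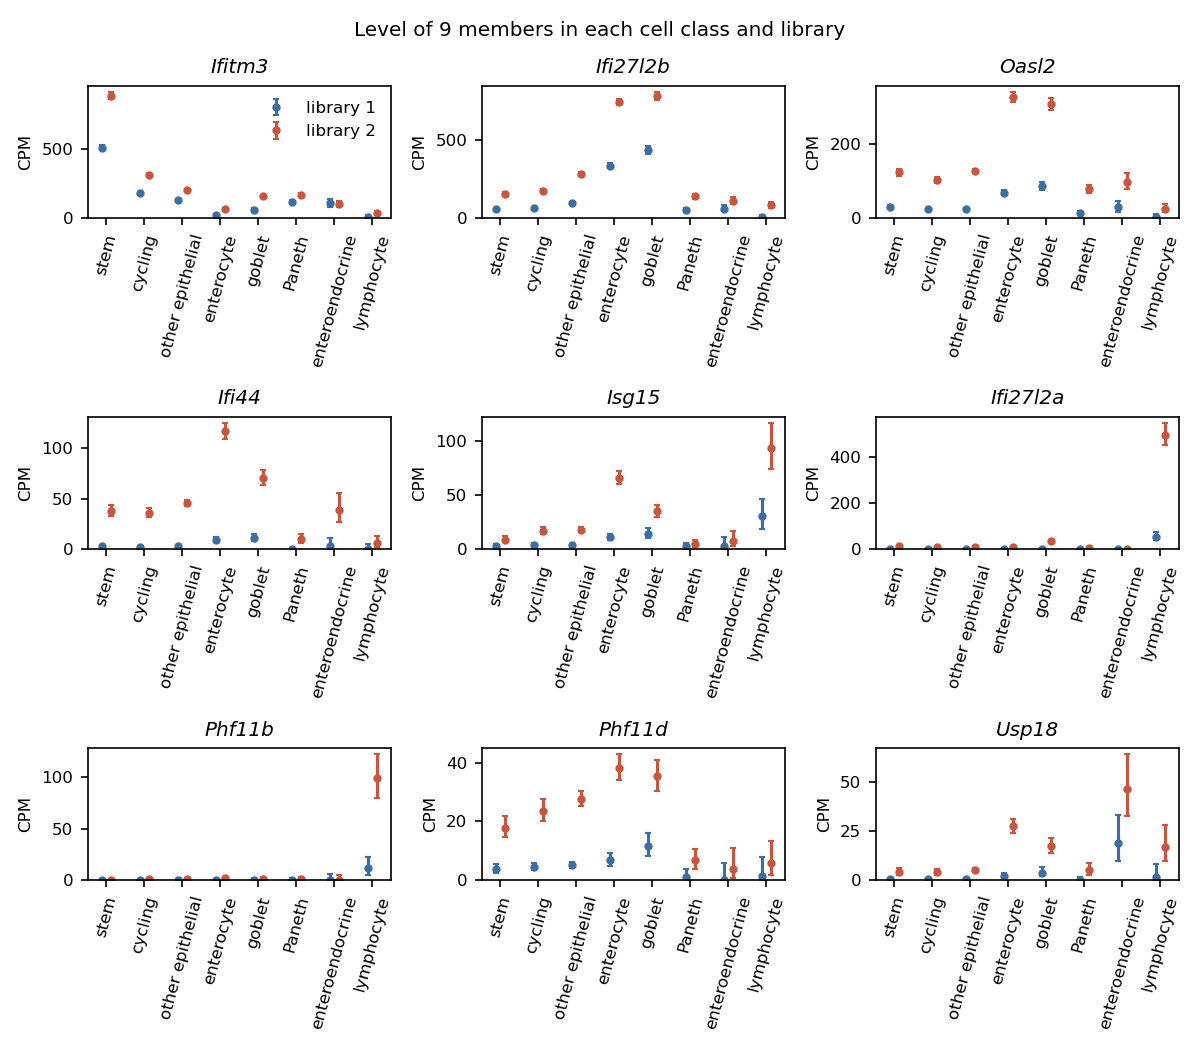
Level of 9 members in CPM (y axes, linear, each panel with its own scale) in 8 cell classes (x axes); points are class sums of library 1 (blue) and library 2 (red) and bars are exact 95% counting intervals. Ifitm3 peaks in the stem class (512 and 888 CPM), Ifi27l2b, Oasl2 and Ifi44 in goblet cells or enterocytes, Ifi27l2a and Phf11b in lymphocytes, and Usp18 in enteroendocrine cells.

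The share of all genes highest in each class was not computed, so the counts in this paragraph do not set the members apart from other genes. Lymphocytes held the highest level of 18 members in library 1 and of 18 in library 2. For 11 and 14 of these the interval lay above that of the next class. Such members included Gbp2, Gbp3, Gbp7, Zbp1, Ddx58, Trim30a, Ifi27l2a and Phf11b in both libraries. Goblet cells held the highest level of 11 members in library 1 and of 5 in library 2, and enterocytes of 6 and 12. The interval lay above that of the next class for only 3 and 1 of those of goblet cells and 2 and 3 of those of enterocytes. Oasl2 was among those that passed from one to the other, but in library 2 its level in enterocytes, 326 CPM, and in goblet cells, 307 CPM, had overlapping intervals. Oas2 and Ifi27l2b had their highest value in goblet cells in both libraries, but the intervals overlapped those of the next class for Oas2 in both and for Ifi27l2b in library 2. The stem class held the highest level of Ifitm3 alone. A CPM is a share of a cell's UMIs, so at the same CPM a lymphocyte, with fewer UMIs, gave fewer molecules than an epithelial cell.

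Compared within 1 library, most members were higher in enterocytes than in the stem class. In library 1, 31 members had at least 20 UMIs over both classes, and by the same rule of size 23 were higher in enterocytes, where 18.7% of all genes were, and 2 lower, Ifitm3 and Gbp7, where 45.4% of all genes were. In library 2, 28 of 37 were higher (all genes 19.5%) and 3 lower, Ifit2, Ifi27l2a and Ifitm3 (all genes 42.4%). The members' median log2 ratio of enterocytes to stem was 1.30 in library 1 and 1.40 in library 2, against -0.49 and -0.40 over all genes. Ifit1 and Ifit3 showed this most in library 2: Ifit3 was 14.2 times (8.83 to 24.1) and Ifit1 21.1 times (14.4 to 32.1) as high in enterocytes as in the stem class. Irgm1, Eif2ak2 and Lgals3bp were not apart between these classes in either library.

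The difference between the libraries was seen across most cells of a class. This was read on the 35 members without Ifitm3, Ifi27l2b and Lgals3bp. In the stem class 86.9% of the cells of library 2 had a member share above the median cell of library 1, in enterocytes 92.1%, in Paneth cells 89.5%, in lymphocytes 85.6% and in enteroendocrine cells, the lowest, 76.9%. For library 1 itself this share is about 50% by construction. Above the 90th percentile of library 1 lay 57.3% of library 2 cells in the stem class and 65.3% in enterocytes. The share was 46.6% in Paneth cells, 45.8% in lymphocytes, 36.9% in goblet and 35.2% in enteroendocrine cells. Median cells held 399 and 820 CPM in the stem class and 754 and 1938 CPM in enterocytes. When every cell was thinned to 2000 UMIs, the share of cells with no UMI of these members was 41.5% in library 1 and 20.7% in library 2 in the stem class, and 18.7% and 5.24% in enterocytes. The variance of the thinned counts divided by their mean was 1.28 and 4.17 in enterocytes, 1.34 and 1.74 in the stem class, and 1.73 and 1.45 in enteroendocrine cells. Where cells differ, this quantity also grows with the mean, which in the stem class was 0.952 and 2.0.

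**Figure D4:**
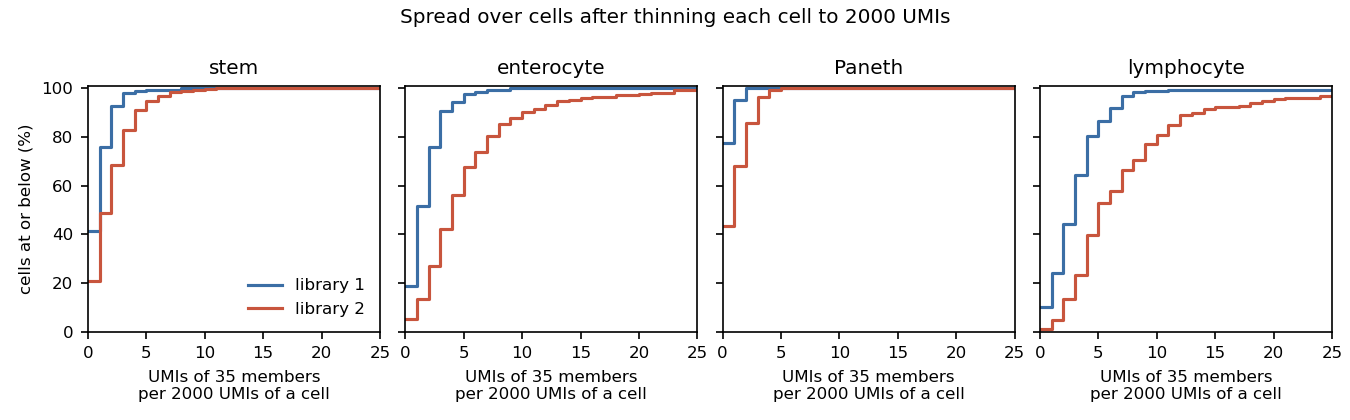
Cumulative share of cells (y axis, percent) at or below a number of UMIs of 35 members (x axis) after each cell was thinned to 2000 UMIs, in 4 classes, library 1 in blue and library 2 in red; 22 and 14 shallower cells were left out in the stem class and 68 and 35 among lymphocytes. The red curve lies to the right of the blue one in each panel except where both reach 100%, and its long upper end in lymphocytes and enterocytes marks cells with over 15 such UMIs.

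Lymphocytes of library 2 had the highest variance to mean of the 8 classes, 11.4 at a mean of 7.98 UMIs, against 2.72 at a mean of 3.15 in library 1, and 5% of their cells lay above 9974 CPM. The 11 lymphocytes of library 2 with the highest member share, the top 5%, held 24.6% of the class's UMIs of these members, and 69 of its 103 UMIs of Ifit1. Over the 8 classes and both libraries, the top 5% of cells held between 17.7% and 27.3%. In the 11 lymphocytes of library 2 the Ifit1 level was 2049 CPM, that of Gbp7 1723 and that of Trim30a 1277. The cells were picked by their share of the 35 members, which include these genes, so high levels follow in part from that choice. Among T cell genes the 11 cells had Cd3e at 1188 CPM, Cd8a at 1485 CPM and Trac, of the alpha-beta receptor, at 950 CPM. Trdc, of the gamma-delta receptor, had 2 UMIs in them (59.4 CPM), and the B cell gene Cd79a none. The myeloid gate marker Itgax had 8 UMIs in them (238 CPM) and the epithelial gene Epcam 4 (119 CPM). The top 14 of library 1 held 5 UMIs of Ifit1 in all, with Cd3e at 1946, Cd8a at 2673, Trac at 988 and Trdc at 1162 CPM. These 14 cells also held 10 UMIs of Itgax and 13 of Epcam. Without these top cells in both libraries, a calculation chosen after seeing the data, the summed ratio in lymphocytes was 2.17 (2.02 to 2.34) in place of 2.36.

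The share of cells with a UMI of a member was compared at equal depth, after thinning. Oasl2 had a UMI in 4.84% of stem-class cells of library 1 (exact 95% interval 3.12 to 7.11; 24 of 496) and in 21.7% of library 2 (17.8 to 26.1; 88 of 405). Without thinning the shares were 25.9% and 64.7%. In thinned lymphocytes, where Oasl2 was lowest, they were 0.51% and 4.42%. Ifi27l2a had a UMI in 8.16% (4.74 to 12.9) and 49.7% (42.2 to 57.2) of thinned lymphocytes, against 0 of 52 and 0 of 76 thinned enteroendocrine cells. The exact 95% intervals of these zeros reach 6.85% and 4.74%, and 3 counts of the total would be 5.77% and 3.95%. Ifi44 was in 1.04% and 20.2% of thinned enterocytes.

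The enterocyte and stem classes were split further, after seeing the data, to look for the difference within narrower ranges of cells. Enterocytes low in the lipid-carrier genes Apoa1, Apoa4 and Apoc3 had a summed ratio of 2.19 (2.12 to 2.27), and those high in them 2.47 (2.39 to 2.55). These genes are among the 10 gate markers of the enterocyte class, so this split is not independent of the gate. Enterocytes low in the antimicrobial lectins Reg3b and Reg3g had 2.58 (2.50 to 2.67) and those high in them 2.20 (2.13 to 2.28). Stem-class cells past the cycling gate had 1.89 (1.81 to 1.97), and those not past it 1.81 (1.75 to 1.88). Library 2 was thus higher within each of these 6 ranges.

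Of 27 other genes of the interferon pathway, 20 were measured in the stem class. None was lower there (all genes 1.31%), and 5 were higher (all genes 3.03%). These were the transcription factors Stat2, at 16.8 CPM in library 1 and 37.1 in library 2 (2.21, 1.76 to 2.81), Irf9 (1.52, 1.30 to 1.77) and Irf7, which amplifies interferon production, at 5.35 and 24.6 CPM (4.61, 3.18 to 6.82). Nlrc5 and Ciita, the activators of MHC class I and class II genes, stood at 2.31 and 10.5 CPM (4.54, 2.58 to 8.47) and at 4.77 and 13.9 CPM (2.92, 1.92 to 4.54). The receptor subunits were not apart: Ifnar1 of the type I receptor was at 28.8 and 29.2 CPM (1.01, 0.819 to 1.25), Ifngr1 at 130 and 141 CPM (1.09, 0.985 to 1.2) and Ifngr2 at 144 and 134 CPM (0.928, 0.843 to 1.02). Irf1 and Irf2, with 1171 and 1031 and with 1202 and 851 UMIs, had ratios of 1.10 (1.01 to 1.2) and 0.887 (0.812 to 0.970).

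Irf7 was higher in 7 classes, in enterocytes at 24.5 and 95 CPM (3.88, 3.24 to 4.67), and was not apart in lymphocytes (1.46, 0.950 to 2.29). Socs3, an inhibitor of cytokine signalling, was lower in cycling cells (0.591, 0.427 to 0.809) and in other epithelial cells (0.666, 0.556 to 0.797). It was higher in enteroendocrine cells, from 7 and 25 UMIs, and Irf3 and Irf8 were lower there. Among the interferons themselves, Ifnb1, Ifna4, Ifne and Ifnl3 had no UMI in any class and Ifnl2 had 3 in all in library 2, so their levels are not detectable at this depth. Ifng had 8 UMIs in the lymphocytes of library 1 and 29 in those of library 2, or 11.5 and 33.1 CPM (2.86, 1.28 to 7.25), and 3 in the other classes together.

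Set against the promoter letters, the ratios overlapped widely. The 17 measured members with ISRE letters had a median ratio of 3.07 in the stem class, from 1.44 for Gbp7 to 33.8 for Ifit1, and the 10 without had 2.64, from 1.21 for Dtx3l to 13.8 for Ifi44. In enterocytes the medians were 4.40 over 18 members and 3.43 over 10. Oasl2, Phf11d and Ifi44, all higher in both classes, had no match in their windows.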

How the data were processed

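Single-cell RNA counts of 2 libraries were analysed. Per the labels' protocols, crypts were freed with EDTA, dissociated with TrypLE Express and pooled from 5 animals per condition. The submitters' processing notes name Cell Ranger 2.1.1 and the build mm10. The values are raw UMI counts per gene and barcode as deposited, whole numbers with no normalization per the file headers. The labels name a 3' droplet kit, but the barcodes are longer than that kit's, so levels are compared for 1 gene, or 1 sum, between classes and libraries. Statements on which members had most UMIs are about captured UMIs, not levels per length, and the shared transcript ends apply if reads came from the 3' end.

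Rows sharing a symbol were summed. Cells had at least 500 genes and at most 25% mitochondrial UMIs. A cell entered a class when its summed gate-marker share reached 2 times (stem, goblet, enterocyte), 3 times (other lineages) or 1.5 times (cycling) the mean over cells, from at least 2 markers; cells past several lineage gates (57 and 45, putative doublets) were left out, and no doublet caller was run. UMIs were summed per class and library, where a class had 50 or more cells in both libraries, and ratios carry exact conditional Poisson intervals. Cells were thinned to 2000 UMIs for shares. With 1 library per group there is no test; the code was tested on simulated data. Named genes were, in each role, the 2 members with most UMIs in the stem class, the 10 highest and 5 lowest there by the interval bound nearest 1, and the 3 highest and 3 lowest in every other class; others were named after their values were seen. From the pathway list 1 gene was left out of every count and is not reported here; the other 27 enter the counts, and not all of them are named. The members, lists and gates were chosen with earlier results of these data known. Python 3.11.15, numpy 2.4.6, scipy 1.17.1, pandas 2.3.3 and leidenalg 0.10.2 were used. Coordinates are from GENCODE M21 on GRCm38. Intervals and floors (3 counts) cover counting error only.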

Additional observations from a re-analysis of the deposited data

Results flagged for a closer look

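The 4972 barcodes that failed the cell filter, which the report's comparisons do not use, also held more of the members in library 2. Their summed level was 949 CPM over 2253 barcodes of library 1 and 2008 CPM over 2719 of library 2, a ratio of 2.12 (95% counting interval 2.05 to 2.18), within the range of the 8 classes. Oasl2 stood there at 50.7 and 205 CPM.

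Tuft cells, chemosensory cells gated on genes such as Dclk1, were too few in library 1 for the classes compared, with 36 cells against 64 in library 2. Their summed level was 969 and 2704 CPM, a ratio of 2.79 (2.51 to 3.11). Oasl2 was at 35.9 and 317 CPM in them (8.83, 5.29 to 15.8) and Parp14 at 11.2 and 78.8 CPM (7.02, 2.8 to 22.7). The tuft cells of library 2 were shallower, with a median of 4591 UMIs against 11072 in library 1, and the part of this in the ratio was not tested.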

How the results depend on the processing

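No alternative run turned the direction of a summed ratio, or of a single-gene ratio that was rerun and counted as higher in its class. Single-gene ratios were rerun only for genes that the naming rules picked, each in the class it was picked in. Alternatives that left a gene no UMI in library 1 gave no ratio and were not compared. Ifi44 in Paneth and Oas2 in enteroendocrine cells, with no UMI in library 1, have no ratio to compare. No paired analysis was possible because each group is 1 library. Of the alternatives, 67 summed ratios, 79 counts of higher members and 656 ratios of single genes stayed within the counting interval (counts: within 1.5 times) of the values reported, and 27, 8 and 38 moved. Depth limits the counts: with cells thinned to 2000 UMIs the members that were higher came to 12 in the stem class, 13 in cycling, 3 in Paneth and 0 in enteroendocrine cells, and with a minimum of 100 UMIs to 15 in the stem class, 5 in Paneth, 2 in enteroendocrine cells and 12 in lymphocytes. Thinning gave summed ratios of 1.69 in the stem class, 2.54 in enterocytes, 2.65 in Paneth, 1.38 in enteroendocrine cells and 2.56 in lymphocytes. Classes from Leiden clusters made without the members gave 2.02 in the stem class, 1.95 in other epithelial, 2.19 in goblet and 2.01 in Paneth cells. Without the 3 members with most UMIs the ratios were 2.20 (stem), 2.37 (cycling), 2.38 (other epithelial), 2.82 (enterocyte), 2.36 (goblet), 2.97 (Paneth) and 2.02 (enteroendocrine). Gates multiplied by 1.5 gave 2.59 in enterocytes and 2.03 in goblet cells, and gates divided by 1.5 gave 1.95 in other epithelial cells. Scaling to a median ratio of 1 gave 2.30 in enterocytes, a filter of 1000 genes and 15% mitochondrial UMIs 2.04 in goblet cells, and keeping cells past several gates 2.05 in Paneth cells. Added after seeing the data were the splits of enterocytes (2.19 and 2.47 by apolipoproteins, 2.58 and 2.20 by Reg3 genes) and lymphocytes without their top 5% of cells (2.17). The cause of the difference between the libraries was not tested.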
